A study of Homo sapiens with 4 samples.

Results

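The genes described here are those that make, store and take back catecholamines, together with the granins of the secretory granule. They are TH, GCH1, DDC, DBH, SLC18A1, SLC18A2, SLC6A2, CHGA, CHGB and SCG2, chosen by name, and all 10 were found by Ensembl identifier among the 25693 human genes of the count table. RNA was measured in NGP, an established human neuroblastoma line with amplified MYCN, by droplet single-cell sequencing of the 3′ ends of transcripts. All cells had been synchronised by serum starvation and then kept for 24 h in Nutlin-3, a small molecule that keeps MDM2 off p53, or in the solvent ethanol as control. Each treatment had 2 libraries, with ERCC spike-in RNA diluted 1000-fold in one and 10000-fold in the other, and the names of the table's columns give the treatment but not the library. The counts of a treatment were therefore summed over its 250 columns into 1 pool, and no difference below has a replicate or a test. One line in culture was studied, the labels give no dose of Nutlin-3, and nothing states whether the libraries came from separate cultures.

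Catecholamines are made from tyrosine. TH turns tyrosine into L-DOPA and is the rate-limiting step, with tetrahydrobiopterin as cofactor, whose synthesis starts with GCH1. DDC makes dopamine, and DBH, inside the granule, turns dopamine into noradrenaline. The vesicular monoamine transporters VMAT1 (SLC18A1) and VMAT2 (SLC18A2) load the granule, and the noradrenaline transporter (SLC6A2) returns released noradrenaline to the cell. Chromogranin A (CHGA), chromogranin B (CHGB) and secretogranin II (SCG2) are acidic proteins that condense in the granule core and are cut into peptides. Neuroblastoma arises from the sympathoadrenal lineage, and these genes mark its noradrenergic cells.

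The ethanol pool held 1342134 human counts and the Nutlin-3 pool 1301232. Column totals fell into 2 classes on either side of 4000 counts, called large and small below, with 113 large and 137 small columns per treatment. Large columns carried 88.7% of the human counts in ethanol and 89.2% in Nutlin-3. Of the 250 names per treatment, 219 occurred in both, and all 113 large names did, so a column is not treated as a cell here. The spike-ins made up 0.222% of counts with ethanol and 0.307% with Nutlin-3. Mitochondrial transcripts took 1.09% and 1.06% of human counts. CDKN1A, a direct p53 target that encodes p21, had 70 counts with ethanol and 188 with Nutlin-3, and MDM2, which p53 also induces, had 315 and 504.

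The markers of noradrenergic neuroblasts were present. All 16 of the listed genes had counts, 3969 in sum in ethanol and 3810 in Nutlin-3, led by MYCN (1140 and 877), HAND2 (342 and 309) and ELAVL4 (246 and 269). None of the 16 had a log2 fold change as far as 0.5 from 0. All 16 had a summed count of at least 50. Of all genes with that count, 4.44% were at 0.5 or above and 3.86% at -0.5 or below. Most of the markers had far higher sums, and nearly all genes around a summed count of 364 lay between -0.31 and 0.24. Values within 0.5 of 0 are therefore usual at such counts. Several markers, such as HAND1 with 140 and 134 counts in the large columns, lay near 1 count per large column, so their sums do not show equal levels. MYCN was at -0.33 (-0.46 to -0.20), the only one of the 16 with an interval below 0. The enzymes and carriers that define other transmitter types were near 0. The vesicular acetylcholine transporter SLC18A3 had 1 count in each pool and ACHE 2 and 0. Tryptophan hydroxylase 1 (TPH1) had 6 and 5 counts, and the serotonin transporter SLC6A4 1 and 4. The listed transcription factors LHX8 (132 and 141) and FEV (112 and 130) were well above these, and their part in the results was not tested. As a measure of the level of genes the line should lack, 5 of 20 genes of other tissues had any counts, 3 in sum with ethanol and 5 with Nutlin-3. The other 15 were looked for and had no row in the count table. Every one of the 10 catecholamine and granin genes except SLC18A1 stood far above that level in both pools.

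CHGA (ENSG00000100604, chr14:92923080-92935293 on the plus strand, GRCh38) was the most abundant of the 10 and the one whose difference was best measured. Its sum was 411 counts in ethanol (95% Poisson interval 372 to 453) and 559 in Nutlin-3 (514 to 607). These intervals hold counting error alone and did not overlap. On the log2 scale Nutlin-3 stood above ethanol by 0.49 (95% counting interval 0.30 to 0.68) after scaling to human counts, or 1.40-fold. CHGA ranked 76 among all genes by level in ethanol and 35 in Nutlin-3. Of the 48 genes with at least its summed count, CHGA had the highest fold change, an order that no constant factor between the pools can alter. The size of the fold does depend on the scaling. With ERCC counts as the library size the median over all genes moved from 0.00 to -0.47 and the CHGA value to 0.02, so it is the excess over other genes that was measured. The spike-in dilution differed between the libraries of a treatment, so pooled ERCC counts depend on an unknown mix of libraries, a limit of every ERCC-scaled value here.

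Chromogranin B was also higher in Nutlin-3 relative to human counts, with a smaller margin, and secretogranin II was not separated. CHGB (chr20:5911430-5925361) had 154 counts with ethanol (131 to 180) and 186 with Nutlin-3 (160 to 215), a log2 difference of 0.32 whose counting interval (0.0025 to 0.64) barely left out 0. Its value was -0.15 with ERCC scaling. SCG2 (chr2:223596940-223602503) had 172 counts (147 to 200) and 183 (157 to 212), a log2 fold change of 0.14 (-0.17 to 0.44). The counting intervals of the 3 granins overlapped, and differences between them were not tested.

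Of the 4 enzymes of synthesis, TH, GCH1 and DDC had similar sums in the pools and DBH had more with Nutlin-3. TH (chr11:2163929-2171877) had 176 counts with ethanol (151 to 204) and 169 with Nutlin-3 (144 to 196), a log2 difference of -0.01 (-0.33 to 0.30). GCH1 (chr14:54842008-54902852), which starts cofactor synthesis, had 119 (98.6 to 142) and 117 (96.8 to 140), a value of 0.02 (-0.36 to 0.40). DDC (chr7:50458436-50565457) had 138 (116 to 163) and 149 (126 to 175), a value of 0.16 (-0.19 to 0.50). For these 3 genes the sums of the pools lay within each other's counting intervals. DBH (chr9:133635348-133659344), the last step to noradrenaline, had 104 (85.0 to 126) and 131 (110 to 155), a log2 fold change of 0.38 (-0.0034 to 0.76), whose interval included 0 by a narrow margin. With ERCC scaling the DBH value was -0.09. The antisense gene DBH-AS1, which overlaps DBH on the opposite strand, had 2 and 3 counts. FIGNL1, which overlaps DDC on the same strand, had 105 and 88 counts, and how the authors divided reads in shared stretches is unknown.

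Among the transporters, those of the granule and of the plasma membrane did not show one pattern. SLC6A2 (chr16:55655604-55706192) had 55 counts with ethanol (41.4 to 71.6) and 83 with Nutlin-3 (66.1 to 103), a log2 difference of 0.64 (0.13 to 1.16), or 1.55-fold. With ERCC scaling the value was 0.17 and its interval took in 0. VMAT2 (SLC18A2, chr10:117241073-117279430) had 34 counts (23.5 to 47.5) and 33 (22.7 to 46.3), a value of 0.00 (-0.73 to 0.74), and folds from 0.602 to 1.67 were compatible with its counting error. The antisense gene AL391988.1, which overlaps SLC18A2, had 29 and 15 counts and PDZD8 on the opposite strand 116 and 121, so without knowing whether strand was used, reads of SLC18A2 and these genes cannot be told apart. VMAT1 (SLC18A1, chr8:20144855-20183206) stood much lower with ethanol, with 3 counts (0.619 to 8.77) against 18 with Nutlin-3 (10.7 to 28.4). The ratio was 5.46-fold with a counting interval of 1.81 to 32.8, and the log2 value of 2.45 was 1.98 with ERCC scaling. SLC18A1 passed the filter on low counts only through its Nutlin-3 count. AC136621.1, which overlaps SLC6A2 on the same strand, had 10 and 9 counts.

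**Figure D1:**
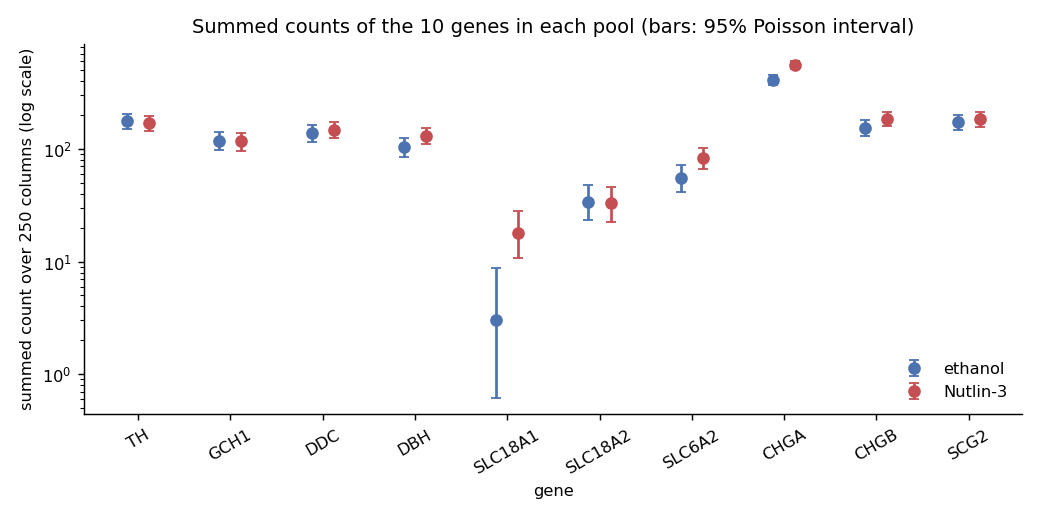
Summed counts of the 10 genes in the ethanol pool (blue) and the Nutlin-3 pool (red) on a logarithmic axis, each summed over 250 columns, with 95% Poisson intervals for counting error only. CHGA lies highest at 411 and 559 counts, SLC18A1 lowest at 3 and 18, and the bars of TH, GCH1 and SLC18A2 overlap almost wholly.

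Over the 10 genes, 9 had a log2 fold change above 0 and 1 below relative to human counts, against 3 above 0 with ERCC scaling. Their median was 0.24, with a range of -0.01 to 2.45, beside a median of 0.00 over the 14830 genes that passed the filter. In the large columns alone the median was 0.10. In the small columns alone it was 0.44, over only the 7 of these genes that passed the filter there. At least 0.5 was reached by 2 of the 10, SLC18A1 and SLC6A2, where 9.47% of all genes did so, and -0.5 or lower by 0 of the 10 against 7.50%. The counting interval lay above 0 for 4 of the 10, SLC18A1, SLC6A2, CHGA and CHGB, against 4.55% of all genes, and below 0 for 0 of the 10 against 3.57%. Of the 9 genes with at least 50 counts in both pools together, 1 reached 0.5 (4.44% of all such genes) and 0 reached -0.5 (3.86%), while 3 had an interval above 0 (3.72%) and 0 below (3.27%). The genes were selected with earlier results of these data in view, and the intervals hold no variation between cultures. In pooled sums, more cells with a transcript and more transcripts per cell cannot be told apart.

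Levels of different genes were compared per kilobase of annotated exon, as CPM, counts scaled to a common total of human counts, per kb. The kit reads 3′ ends, so length need not set the count. TH, GCH1, DDC, DBH, CHGB and SCG2 also lay near 1 count per large column, as described below. The order of these 6 genes per kb therefore need not be one of level. Their intervals take counts as independent, which the large columns did not show for them. CHGA stood first in ethanol at 98.7 CPM per kb (89.4 to 109). SCG2 at 47.1 (40.4 to 54.7) and TH at 40.4 (34.7 to 46.9) came next and their intervals overlapped. DDC followed at 32.8, GCH1 at 30, CHGB at 25.3 and DBH at 20.5, each overlapping the gene before it. Below a clear gap came SLC6A2 at 7.50 (5.65 to 9.76) and SLC18A2 at 6.11 (4.23 to 8.54), which overlapped, and SLC18A1 at 0.572 (0.118 to 1.67). In Nutlin-3 CHGA was at 138 CPM per kb (127 to 150) and SCG2 at 51.7, and CHGB at 31.5 and GCH1 at 30.5 had overlapping intervals. Without division by length CHGB was above GCH1 in ethanol too, at 115 and 88.7 CPM, so the order of these genes rests on the length used. The transporters formed the lowest group of the pathway in both pools.

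Most of the 10 genes were counted about once in each large column. TH had a count in every large column of ethanol, exactly 1 in 84 of them, 2 in 25 and 3 in 4. In Nutlin-3 it had 1 in 88, 2 in 24 and 3 in 1. DDC had exactly 1 count in 103 ethanol and 98 Nutlin-3 columns, and GCH1 in 98 and 100. The variance over the mean for DDC was 0.0821 in ethanol and 0.140 in Nutlin-3, where independent counts would give about 1. This was general, since the median ratio was 0.125 over the 4905 genes with a mean of 0.9 to 1.3 per large ethanol column and 0.132 over 4565 such genes in Nutlin-3. The sums of such genes lay close to the number of large columns in both pools. DBH was missing from 19 large columns in ethanol and from 3 in Nutlin-3, and had exactly 1 count in 89 and 104. Equal sums of TH, DDC, GCH1, CHGB or SCG2 in large columns therefore do not show equal levels.

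CHGA, SLC6A2, SLC18A1 and SLC18A2 lay outside that range. CHGA had a median of 2 counts per large column in ethanol (quartiles 2 and 3, maximum 13) and of 3 in Nutlin-3 (quartiles 2 and 5, maximum 15), and its variance over the mean was 1.03 and 1.06. At 3 or more counts stood 49 ethanol and 77 Nutlin-3 columns. Counting columns with CHGA in place of its counts left a log2 difference of 0.145, since it was seen in 87.6% and 94.4% of all columns. Set beside the column of the same name, the Nutlin-3 column had more CHGA for 69 names, fewer for 25 and the same for 19. Only 142 genes in ethanol and 131 in Nutlin-3 had a mean above 2 per large column. SLC6A2 was seen in 49 large ethanol and 71 large Nutlin-3 columns, and by name it was higher in Nutlin-3 for 42 and lower for 18. SLC18A1 never exceeded 1 count in a column, with 3 ethanol and 18 Nutlin-3 columns holding one, 16 of the latter large. Columns are not replicates, so these counts describe the 2 pools only.

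**Figure D2:**
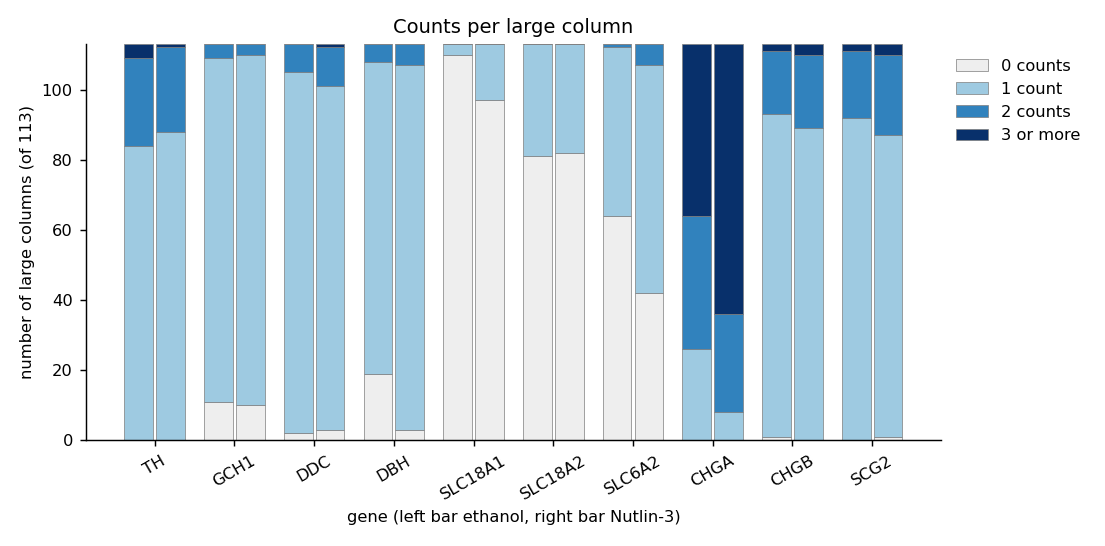
Number of large columns per treatment with 0, 1, 2 or at least 3 counts of each gene (left bar ethanol, right bar Nutlin-3). Exactly 1 count is the rule for TH, GCH1, DDC, DBH, CHGB and SCG2, while 49 ethanol and 77 Nutlin-3 columns hold 3 or more counts of CHGA.

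The small columns gave larger differences for some genes. DBH had 5 counts with ethanol and 15 with Nutlin-3 there, a log2 fold change of 1.63 (0.19 to 3.54), against 99 and 116 and a value of 0.27 (-0.13 to 0.67) in the large columns. CHGB had 20 and 45, a value of 1.29 (0.52 to 2.15), against 134 and 141 and 0.11 (-0.24 to 0.47) in the large ones. CHGB had exactly 1 count in 92 and 89 of the large columns, and whether this limited the difference in that class was not tested. CHGA differed in both classes, with 121 and 149 counts and 0.44 (0.08 to 0.80) in the small columns and 290 and 410 counts and 0.54 (0.32 to 0.76) in the large. Exactly 1 count of CHGA was held by 93 small ethanol and 99 small Nutlin-3 columns. Whether this limited its small-column value was not tested. SLC6A2 had only 5 and 6 counts in the small columns, so its difference of 0.66 (0.13 to 1.21) came from 50 and 77 counts in the large ones. TH had 30 and 30 in the small columns, a value of 0.14 (-0.64 to 0.92), and GCH1 13 and 11, so neither class separated the pools for these genes. DDC (19 and 26) and SCG2 (35 and 42) had small-column values of 0.58 (-0.32 to 1.53) and 0.40 (-0.28 to 1.09), both with 0 inside. The difference between classes was not tested.

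Levels per class are given with the same limit, since a gene held near 1 count per large column has a CPM there set largely by the column totals. In the large columns CHGA is the exception among those named, but in the small columns it is not. There it had exactly 1 count in 93 of 137 columns in ethanol and in 99 of 137 in Nutlin-3. The same limit therefore holds for its small-column CPM. In ethanol CHGA was at 244 CPM in the large columns and 798 CPM in the small ones, and in Nutlin-3 at 353 and 1060 CPM. TH was at 123 and 198 CPM in ethanol and SCG2 at 115 and 231 CPM. DBH went the other way in ethanol, at 83.2 CPM in large and 33.0 CPM in small columns, and was at 100 and 106 CPM in Nutlin-3. What sets the classes apart was not tested.

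**Figure D3:**
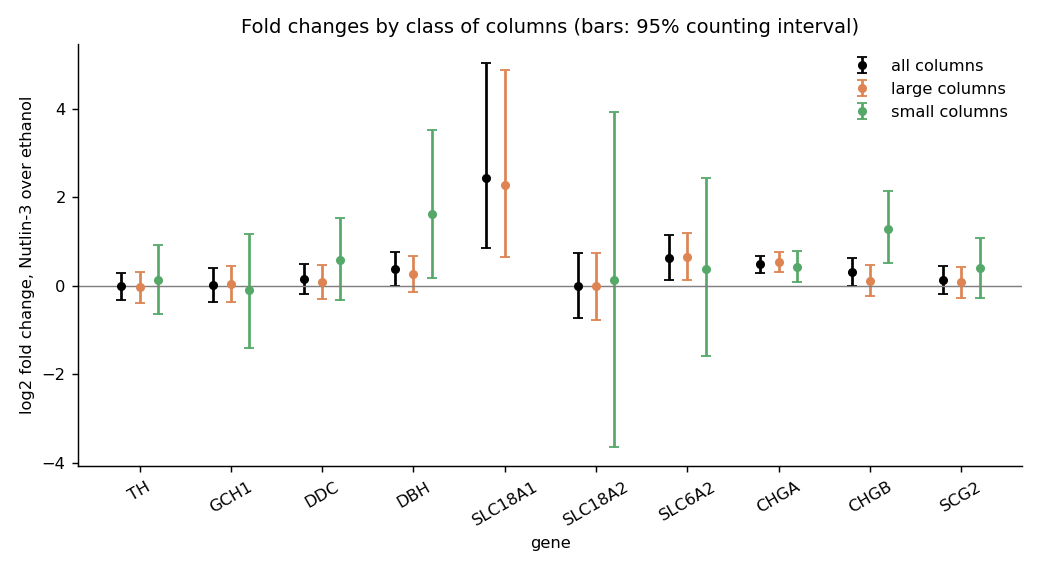
Fold change (log2) of Nutlin-3 relative to ethanol, scaled to human counts, for each gene in all columns (black), large columns (orange) and small columns (green), with 95% counting intervals. CHGA lies above 0 in all 3, DBH and CHGB are highest in the small columns at 1.63 and 1.29, and the small-column point of SLC18A1 is left out because ethanol had 0 counts there.

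The share of columns with a count was compared at a common depth of 700 counts, at which 194 ethanol and 187 Nutlin-3 columns remained. CHGA was seen in 31.4% of ethanol (95% exact binomial interval 25 to 38.5) and 33.7% of Nutlin-3 columns (27 to 40.9), and the share expected over all draws was 29.7% and 35.5%. Unthinned, it was seen in 87.6% and 94.4% of the 250, whose median human counts were 2287 and 2010.5. SCG2 was seen in 8.25% (4.79 to 13.0) and 17.6% (12.5 to 23.9) in that draw, while the share expected over all draws was 11% and 13.5%, a smaller gap than in the single draw. GCH1 was seen in 10.3% and 5.35%, with 6.12% and 6.27% expected over all draws. TH was seen in 9.79% and 10.7%. The intervals of the pools overlapped for each of the 10 genes. These intervals take columns as independent, but columns are not replicates, so the shares describe the pools only. Counts of TH, GCH1, DDC, DBH, CHGB and SCG2 varied little over the large columns, as described above. After thinning, their share in those columns therefore depends largely on column depth, and similar shares do not show equal levels. For TH the expected share there was 8.51% in ethanol and 8.44% in Nutlin-3. All cells are of one line, so the share that free RNA alone would give is unknown.

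Promoter sequence is shown for the members whose RefSeq start lies near a cAMP response element, a site that CREB family factors bind. They were shown because 2 of the genes hold the same element at nearly the same distance from their RefSeq start. RefSeq windows of 250 bases before to 50 after the start site (GRCh38.p14) were matched for 4 of the 10 genes, DBH, DDC, SLC18A2 and CHGA. Searched on both strands, the full element TGACGTCA was in the windows of CHGA and SLC18A2, and in 1.85% of all 35116 windows. Its core TGACG, which the full element contains, was also in the DBH window, and in 24.6% of all windows. Capitals mark the element in 30 bases of the plus strand, 5′ to 3′.
CHGA: ggcggcaccgcTGACGTCAtttccggggtc
SLC18A2: ccctccggccgTGACGTCAgagccggacgg
DBH: aactcccactgaTGACGtccatgtgtcatt
The stretches are chr14:92923085-92923114, chr10:117241055-117241084 and chr9:133636170-133636199, and the elements begin 54, 48 and 181 bases before the RefSeq start. The CHGA and DBH stretches lie inside the GENCODE span of their gene, which starts further upstream. The SLC18A2 stretch crosses the GENCODE start of its gene at 117241073. The distances given therefore hold for RefSeq starts only. CHGA, with the full element, had a log2 fold change of 0.49, and SLC18A2, with the same letters, had 0.00 with an interval of -0.73 to 0.74 that takes in the CHGA value. The AP-1 site TGACTCA, the E-box CACGTG and a PHOX2 type site, TAAT and ATTA with any 3 bases between, were in 0 of the 4 genes' windows, against 4.95%, 7.26% and 0.365% of all windows. A match is a run of letters and not a measured site.

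The wider catecholamine pathway was followed in 21 further genes, of which 17 had counts to use and 13 passed the low-count filter. The median of the 13 on the log2 scale was 0.06, with 4 genes at 0.5 or above (9.47% of all genes) and 0 at -0.5 or below (7.50%). With ERCC scaling the median was -0.41 and 4 of the 13 lay above 0. The most abundant genes named here had similar sums in both pools, but lay near 1 count per large column, so these sums do not show equal levels. AKR1B1, an aldehyde reductase of noradrenaline breakdown, had 173 counts with ethanol and 176 with Nutlin-3. QDPR, which recycles the TH cofactor, had 139 and 132, and CYB561, which carries electrons for DBH across the granule membrane, had 132 and 133.

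The 4 genes past 0.5 remove amines or act in cofactor synthesis, and none of the 4 had a counting interval that left out 0 with ERCC scaling. MAOA, a mitochondrial enzyme that oxidises noradrenaline, had 50 and 76 counts, a log2 fold change of 0.65 (0.12 to 1.20). SLC29A4, a plasma membrane monoamine transporter, had 39 and 59, a value of 0.64 (0.04 to 1.27). SPR, the last enzyme of tetrahydrobiopterin synthesis, had 31 and 44, a value of 0.54 (-0.14 to 1.26) with 0 inside the interval. GCHFR, the feedback regulator of GCH1, had 9 and 23, a value of 1.35 (0.23 to 2.70). It was chosen after its values were seen because it falls under the 50 counts asked of a named gene. GCHFR passed the filter on low counts only through its Nutlin-3 count, so its place among the 4 is partly set by the filter. The ERCC-scaled values of the 4 genes were, in that order, 0.18, 0.17, 0.08 and 0.88. PNMT, which would make adrenaline, had 2 and 7 counts, and is named here although no rule chose it.

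Granule processing and exocytosis were covered by 50 further genes, of which 46 had counts to use and 41 passed. Most differed little, with a median log2 fold change of 0.02 and 32 of the 41 within 0.5 of 0. Beyond that lay 5 higher and 4 lower genes, against 9.47% and 7.50% of all genes. With ERCC scaling the median was -0.45 and 5 of the 41 lay above 0. Sums of the most abundant, most of which lay near 1 count per large column and so do not show equal levels, are given for the neuropeptide galanin (GAL, 193 and 203 counts), secretogranin III (SCG3, 172 and 164), SNAP25 of the fusion complex (176 and 157) and the calcium sensor SYT1 (151 and 177).

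Prohormone processing held the lowest fold change of the list and one of the higher ones. PCSK1, a convertase that cuts granins and prohormones, had 47 counts with ethanol and 10 with Nutlin-3, a log2 fold change of -2.13 (-3.34 to -1.18). Of the 11954 genes with a summed count of at least 50, only 1 had a lower fold change. All PCSK1 counts were in large columns, and by column name Nutlin-3 was lower for 41 names and higher for 4. A shared name is not known to make columns a matched pair, and columns are not replicates. The numbers by name therefore describe the pools only. PCSK2, the companion convertase, went the other way with 66 and 94 counts and a value of 0.55 (0.09 to 1.03). SCG5, the chaperone of PCSK2, had 42 and 23, a value of -0.81 (-1.62 to -0.06). CPE, the carboxypeptidase that trims the cut peptides, was chosen after its values were seen and had 134 and 173 and a value of 0.41 (0.08 to 0.75).

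Genes of granule docking also lay at both ends. RAB27B, a small GTPase that tethers granules, had 48 counts with ethanol and 17 with Nutlin-3, a log2 fold change of -1.42 (-2.34 to -0.63), and 11 of the 11954 genes were lower. SYTL4 (granuphilin), which binds RAB27 proteins, had 38 and 74, a value of 1.0 (0.42 to 1.61). DOC2B, a calcium sensor of exocytosis, had 43 and 87, a value of 1.05 (0.52 to 1.63), with 99 genes higher. RAB3B had 26 and 41 and a value of 0.69 (-0.04 to 1.47). By column name, Nutlin-3 was higher for 46 and lower for 11 names in DOC2B, and higher for 8 and lower for 38 in RAB27B. These numbers too describe the pools only, since columns are not replicates. With ERCC scaling, which lowers all genes alike, DOC2B was at 0.59, SYTL4 at 0.53, PCSK2 at 0.08 and RAB3B at 0.22, and of these 4 only DOC2B had an interval that still left out 0.

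**Figure D4:**
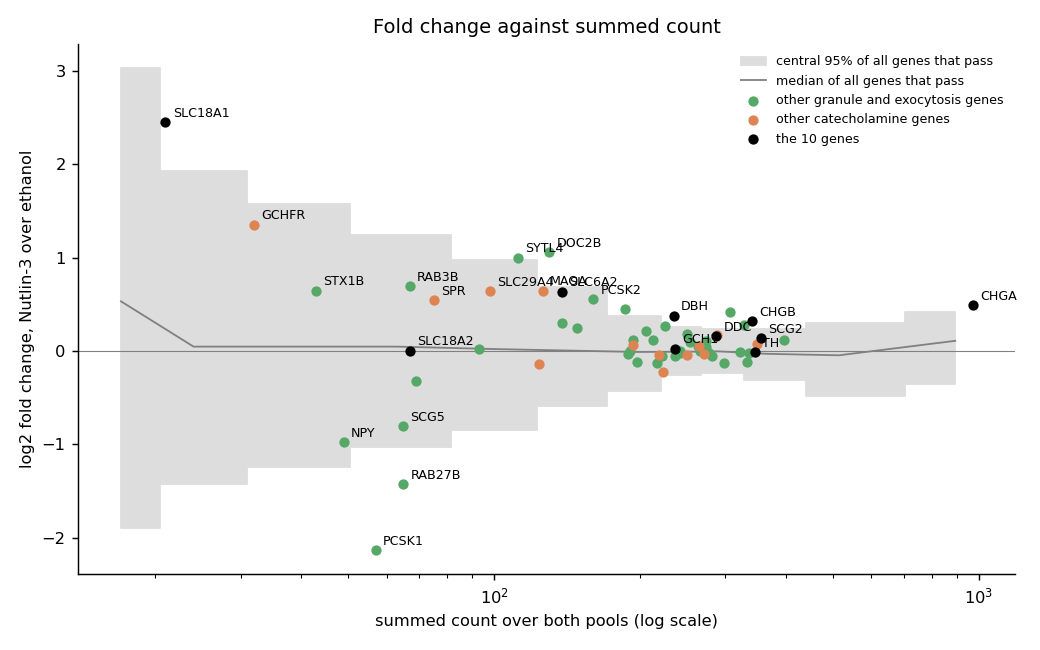
Fold change (log2) of Nutlin-3 relative to ethanol, scaled to human counts, against the summed count of both pools on a logarithmic axis, for the 10 genes (black), other catecholamine genes (orange) and other granule genes (green), over the central 95% of all genes of similar count (grey). CHGA lies at 0.49, above the height of the right end of the grey band, PCSK1 and RAB27B lie below it at -2.13 and -1.42, and most others stay near 0.

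The spread of fold changes over all genes was widest at low counts, narrowest for summed counts around 291 and wider again above. In the range around a summed count of 244 the central 95% of 2634 genes lay between -0.26 and 0.25, and around 893.5 that of 118 genes lay between -0.36 and 0.41. DBH, with 104 and 131 counts and a log2 fold change of 0.38, therefore lay above the band for genes of its count, and so did CHGA and CHGB. Genes near 1 count per large column, DBH and CHGB among them, varied less over those columns than independent counts would. Whether this narrows the band was not tested. The counting interval of DBH included 0 (-0.0034 to 0.76), and CHGB was at 0.11 (-0.24 to 0.47) in the large columns. SLC18A1 lay above its band too, but it passed the filter only through its Nutlin-3 count, which partly sets that place. Its value of 2.45 was above the upper limit of 1.93 around a summed count of 24 and below that of 3.03 around 17. TH, SCG2, DDC, GCH1, SLC18A2 and SLC6A2 lay inside theirs. Rank among genes is not a test of the treatment, since each treatment is 1 pool.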

How the data were processed

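The authors deposited whole-number counts per Ensembl gene and column from the SureCell WTA 3′ kit on the ddSeq device, per the labels' protocols. Aligner, barcode reading, build, annotation and cell filter were not given in the sources used here. Columns carry 12 bases and the word treated, taken as Nutlin-3, or untreated, taken as ethanol. Human counts were summed per treatment, without the 62 ERCC species. TMM factors and the low-count filter (minimum 10) came from edgeR 4.0.16 in R 4.3.3, and log2 fold changes used 0.5 added counts. Intervals (95%, SciPy 1.17.1) are exact binomial or Poisson and cover counting error only, as if counts were independent. Symbols, exon lengths and overlaps came from GENCODE release 29 (GRCh38), which need not be the authors' annotation. The calculation was tested on simulated data drawn as independent counts. Genes near 1 count per large column varied less than that, so the test does not carry over to their intervals. With 1 pool per treatment no test was run. The members and gene lists were chosen with earlier results of these data known, and so were the column classes. Named were all 10 members, the 4 most abundant genes of each further list, every listed gene with at least 50 counts and a log2 fold change of 0.5 or more in size, the leading markers, CDKN1A, MDM2 and overlapping genes, and 2 genes of that rule are not reported here. Columns were thinned once at random to 700 counts. No doublet caller was run. Alternatives included DESeq2 1.42.0 size factors, ERCC library sizes and single column classes.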

Additional observations from a re-analysis of the deposited data

How the results depend on the processing

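No paired analysis was possible because the columns name no library, and for the same reason leaving out a library, the replicate block and the edgeR and DESeq2 tests were not run. Scaling to ERCC counts subtracts one constant from every gene and turned the medians to -0.232 for the 10 genes, -0.408 for the other catecholamine genes and -0.454 for the other granule genes, and CHGB to -0.151. Small columns alone gave 0.303 for the other granule genes, of which 19 then passed the filter, and the cause was not tested. Of 110 member fold changes under the alternatives, 99 stayed within the first counting interval, and of the 11 others ERCC scaling gave 7 and the small columns 3. The remaining one was CHGA, 0.145 when columns with a count were counted in place of counts. DESeq2 size factors, no filter, 1 added count, thinned pools, shared column names and removal of shallow columns kept the median of the 10 genes between 0.205 and 0.24. Large columns alone gave 0.10, small columns alone 0.437 over 7 genes, the number of columns with a count 0.125, and leaving out SLC18A1, chosen after seeing the data as was leaving out the richest column, gave 0.156.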

Other observations

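A pair of transcription factors stood out among the markers of other transmitter types. LHX8, listed as a cholinergic marker, had 132 counts with ethanol and 141 with Nutlin-3, and FEV, listed as a serotonergic marker, had 112 and 130, sums close to 1 count per large column, which do not show equal levels. The enzymes and carriers of those types were at 6 counts or fewer where the count table held them, and CHAT and SLC5A7 had no row in it. Both factors differed little between the pools, with log2 fold changes of 0.14 (-0.21 to 0.49) and 0.26 (-0.11 to 0.64).

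Among 12 genes of the mesenchymal neuroblastoma state, 10 had counts to use, with 683 counts in sum in ethanol and 708 in Nutlin-3. VIM (276 and 277) and TWIST1 (210 and 230) led, followed by SNAI2 (73 and 54). Of the 7 that passed the filter, 2 were at 0.5 or above (9.47% of all genes) and 2 at -0.5 or below (7.50%). Chosen after their values were seen, CD44 had 31 and 58 counts, a log2 fold change of 0.94 (0.30 to 1.63), COL1A1 had 29 and 47, a value of 0.73 (0.04 to 1.46), and FN1 had 37 and 19, a value of -0.90 (-1.80 to -0.08). Of the Schwann cell markers, ERBB3 had 8 and 13 counts and S100B 0 and 3. NPY, a neuropeptide stored with noradrenaline, had 33 and 16 counts and a value of -0.98 (-1.96 to -0.10), and was named after its values were seen.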
